A study of Mus musculus with 4 samples.

Results

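The smooth muscle contractile genes described here are Acta2, Myh11, Tagln, Myl9, Cnn1, Tpm2, Lmod1 and Actg2, 8 of the 32285 genes in the deposited count matrices. They were taken by symbol. They were chosen with their difference between the study's times already known, so their values by time are a description and carry no test. The study sequenced RNA of single nuclei from micropunched PVN tissue of male C57Bl6 mice, aged 10 weeks per the sample labels, at ZT8 and at ZT20 (zeitgeber time, in hours). No genotype, transgene or agent is named for either group, and the time of collection is the difference between them. Each group has 2 libraries, and each library pools 5 PVNs, so no value belongs to 1 animal. The labels do not say whether the 2 pools of a time came from separate dissections. The p-values therefore measure only the spread between these libraries, which may be technical.

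Smooth muscle cells ring the arteries and arterioles of the brain and set their diameter. Pericytes, which share the wall of the smallest vessels, carry much less of the contractile apparatus. In that apparatus the myosin heavy chain Myh11, regulated through the light chain Myl9, pulls on filaments of the actins Acta2 and Actg2. Tropomyosin Tpm2, calponin Cnn1 and transgelin Tagln bind the actin filament, and the leiomodin Lmod1 helps to build it. The genes are known targets of the serum response factor Srf and its co-activator Myocd, which act through a DNA element named the CArG box.

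Positions are given on GRCm38 (mm10) from GENCODE release M21. Acta2 (ENSMUSG00000035783) lies at chr19:34241090-34255590 on the minus strand and Myh11 (ENSMUSG00000018830) at chr16:14194535-14291372 on the minus strand. Tagln (ENSMUSG00000032085) lies at chr9:45929619-45936058 on the minus strand and Cnn1 (ENSMUSG00000001349) at chr9:22099216-22109630 on the plus strand. Myl9 (ENSMUSG00000067818) lies at chr2:156775420-156781658 on the plus strand and Tpm2 (ENSMUSG00000028464) at chr4:43514711-43523765 on the minus strand. Lmod1 (ENSMUSG00000048096) lies at chr1:135324807-135368065 on the plus strand and Actg2 (ENSMUSG00000059430) at chr6:83512905-83536265 on the minus strand. Tagln overlaps Pcsk7 by 108 bases and the antisense gene Gm48529 by 3627 bases, both on the other strand. Gm48529 had 46 and 45 UMIs at ZT8 against 22 and 28 UMIs at ZT20, and the use of strand in the counting is not given in the sources used here. No other member overlaps a gene of the matrices. Words of 50 bases shared with transcripts of another gene made up 0.33% of the Acta2 words and 0.34% of the Myh11 words, and none for the other members.

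The RefSeq promoter table for GRCm38.p6 holds 5 of the 8 genes (Acta2, Cnn1, Lmod1, Myl9 and Tpm2), each as 250 bases before and 50 bases after the transcription start. Both strands were searched for the CArG box, CC and GG around 6 letters that are A or T, exactly and with 1 of the 6 letters changed to C or G. An exact match was found in Myl9 alone, and it is present in 1.63% of the 32851 promoters of the table. With 1 change allowed, Acta2 and Myl9 held 2 matches each, beside 9.98% of all promoters with at least 1. Cnn1, Lmod1 and Tpm2 held none. The 4 matches are shown, since the CArG box is the element through which the group is known to be controlled. Capitals mark the matching 10 bases and lower case their flanks.
Acta2, chr19:34255438-34255467, minus strand: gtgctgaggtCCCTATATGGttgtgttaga
Acta2, chr19:34255388-34255417, minus strand: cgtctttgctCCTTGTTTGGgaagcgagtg
Myl9, chr2:156775293-156775322, plus strand: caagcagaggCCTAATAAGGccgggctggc
Myl9, chr2:156775355-156775384, plus strand: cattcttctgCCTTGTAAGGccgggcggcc
The Acta2 matches begin 84 and 34 bases before the start, and the Myl9 matches 161 and 99 bases before it, the first of which is the exact one. These are starts of RefSeq, and both Acta2 matches lie inside the span that GENCODE gives the gene. A match describes the letters of these windows and was not tested for binding.

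The matrices held 57970649 and 69223344 unique molecular identifiers (UMIs, 1 per captured RNA molecule) at ZT8, and 63558166 and 61933800 at ZT20. After filters, the ZT8 libraries kept 6053 and 6513 nuclei, the ZT20 libraries 7747 and 8667. Their median depth was 4366 and 5148 UMIs at ZT8 and 3437 and 2063 UMIs at ZT20. The median share of mitochondrial UMIs was 0.12% in both ZT8 libraries and 0.25% and 0.33% at ZT20. Libraries shared 9 to 22 barcodes pairwise. Levels below are UMIs in kept nuclei scaled to equal library totals (CPM), and they compare libraries, not genes with each other. Intervals are exact 95% intervals, and they and the floors of 3 counts cover counting error only.

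All 8 genes were lower in both ZT20 libraries than in both ZT8 libraries, and their summed level was 82.1 ± 7.2 CPM at ZT8 (SD, n = 2) and 5.75 ± 0.36 CPM at ZT20 (SD, n = 2). The ratio of these means was 14.3. Among all 21040 genes tested, 31% had both ZT20 libraries below both ZT8 libraries, and 1.82% were called at an adjusted p under 0.05 and at least 2-fold lower at ZT20. Since the genes were chosen for this difference, nothing is read from their count against that background. In these levels over all nuclei, fewer nuclei of a type and less RNA per nucleus cannot be told apart.

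Of the 2 actins, Acta2 stood at 26.3 and 24.8 CPM in the ZT8 libraries and at 0.826 and 0.762 CPM in the ZT20 libraries. Its mean at ZT8 was 32.2 times that at ZT20, the widest ratio of the 8, and the fitted log2 change was -5.04 ± 0.10 (SE). Actg2, the enteric form, stood at 1.72 and 1.60 CPM at ZT8 and at 0.773 and 0.889 CPM at ZT20. Its ratio of 2.00 was the narrowest, with a log2 change of -1.03 ± 0.19 (SE). For both actins the groups did not overlap. A UMI of Acta2 was present in 7.47% and 6.46% of nuclei at ZT8 against 0.516% and 0.415% at ZT20.

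The myosin chains showed the same separation. Myh11 stood at 18.6 and 18.2 CPM at ZT8 and at 1.02 and 0.798 CPM at ZT20, a ratio of 20.3 between means. Myl9 stood at 8.04 and 7.05 CPM at ZT8 and at 0.844 and 0.943 CPM at ZT20, a ratio of 8.45. The ZT8 libraries lay close together for both chains, and so did the ZT20 libraries. The log2 changes were -4.37 ± 0.10 for Myh11 and -3.11 ± 0.13 for Myl9 (SE).

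Among the proteins that bind the actin filament, Tagln stood at 13.99 and 10.01 CPM at ZT8 and at 0.475 and 0.454 CPM at ZT20, a ratio of 25.9. Tpm2 stood at 13.0 and 9.68 CPM at ZT8 and at 0.703 and 0.671 CPM at ZT20, a ratio of 16.5. These 2 genes differed more between the ZT8 libraries than the actins did, and replicate 1 was the higher for both. Cnn1 rested on few molecules, 109 and 113 UMIs at ZT8 and 19 and 7 UMIs at ZT20, or 2.08, 1.81, 0.334 and 0.127 CPM. Lmod1 stood at 3.42 and 3.77 CPM at ZT8 and at 1.04 and 0.853 CPM at ZT20, a ratio of 3.80. The log2 changes of these 4 genes were -4.71 ± 0.30, -4.07 ± 0.21, -3.09 ± 0.27 and -1.97 ± 0.15 (SE), in that order. The plot of the genes by library shows the 2 times apart for every gene.

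**Figure D1:**
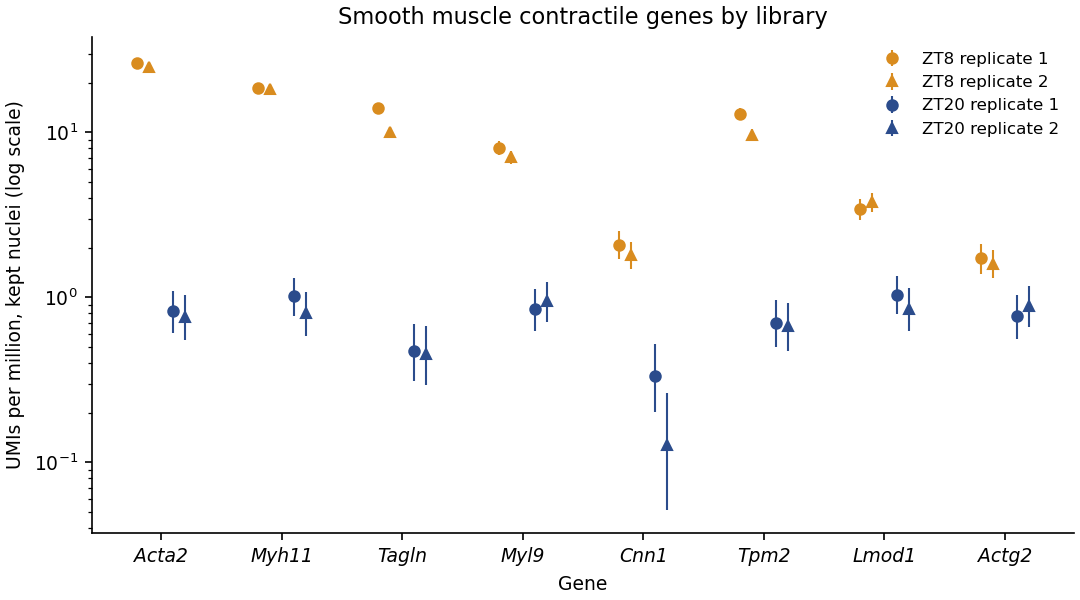
Level of each of the 8 genes in each library (y axis, CPM in kept nuclei, log scale; bars are exact 95% Poisson intervals). The ZT20 libraries lie below the ZT8 libraries for every gene, from a ratio of means of 32.2 for Acta2 to 2.00 for Actg2.

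At ZT8 most molecules of these genes came from few nuclei. Nuclei with 10 or more UMIs of the 8 genes together numbered 76 and 75 at ZT8, and they held 67.8% and 69.9% of the UMIs of the group. At ZT20 there were 2 and 0 such nuclei, which held 7.31% and 0% of them. The highest sum in 1 nucleus was 267 and 256 UMIs at ZT8, against 14 and 8 UMIs at ZT20. Nuclei with UMIs of at least 3 different members numbered 106 and 101 at ZT8, against 3 in each ZT20 library. Nuclei with at least 6 different members numbered 53 and 46 at ZT8, and none was seen at ZT20. Acta2 and Myh11 were found together in 101 nuclei of each ZT8 library and in 2 nuclei of each ZT20 library. The remainder at ZT8 lay in nuclei with 1 UMI (928 and 921 nuclei) or 2 to 9 UMIs (206 and 188 nuclei).

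**Figure D2:**
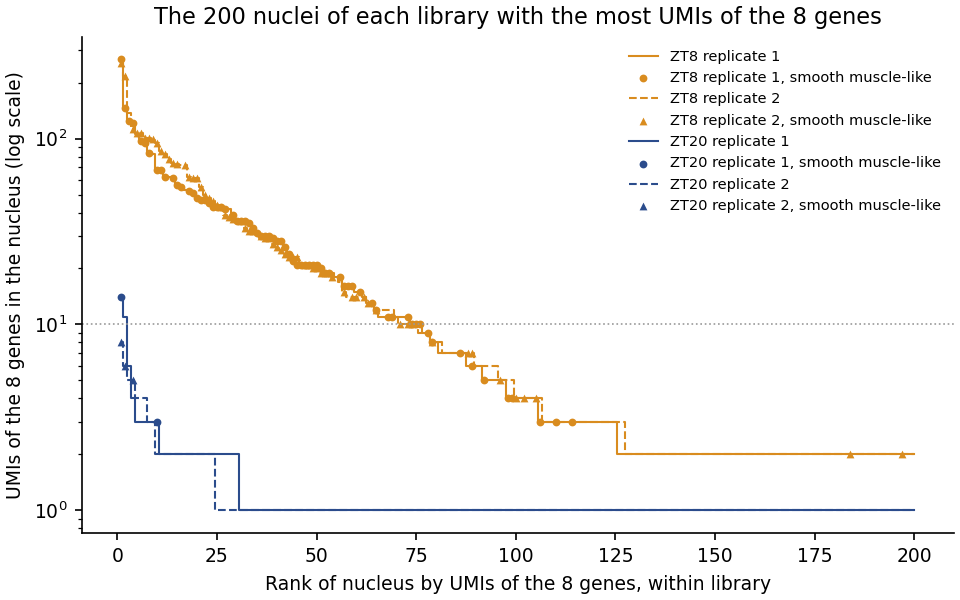
The 200 nuclei of each library with the most UMIs of the 8 genes, by rank (x axis) and UMIs (y axis, log scale); symbols mark nuclei of the smooth muscle-like cluster and the dotted line marks 10 UMIs. At ZT8 76 and 75 nuclei reach the line and most carry a symbol, while at ZT20 2 and 0 nuclei do.

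Nuclei were clustered without these 8 genes and without 25 other contractile genes, so that the clusters were not formed by them. A cluster was named smooth muscle-like from the markers Carmn, Myocd, Itga8, Map3k7cl, Pln and Kcnmb1, of which 5 of 6 were detected and Carmn was among its 10 leading genes. Acta2, Myh11, Tagln, Tpm2 and Myl9 led that cluster although they had no part in forming it. Its nuclei were shallow, with medians of 1238 and 1404 UMIs at ZT8 and 1025.5 UMIs in both ZT20 libraries. The ZT8 libraries put 86 and 78 nuclei there, or 1.42% (interval 1.14 to 1.75%) and 1.20% (0.948 to 1.49%) of kept nuclei. The ZT20 libraries put 10 nuclei each there, or 0.129% (0.0619 to 0.237%) and 0.115% (0.0553 to 0.212%). The difference was -1.19 percentage points, with an exact two-sided permutation p of 0.333, the smallest that 2 libraries against 2 allow.

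The label held for the ZT8 nuclei and not for most of the ZT20 nuclei. At ZT8 the 86 and 78 nuclei carried 110 and 201 UMIs of Carmn, the long RNA of contractile muscle cells, 122 and 204 of the integrin Itga8, and 57 and 71 of Myocd. The 10 and 10 nuclei at ZT20 carried 3 and 0 UMIs of Carmn, none of Itga8, 1 and 0 of Myocd, and 0 and 1 of Pln. When clusters were cut more finely (Leiden resolution 2), the smooth muscle-like cluster held 71 and 65 ZT8 nuclei, against 2 and 3 ZT20 nuclei. With the contractile genes allowed into the clustering, it took in 88 and 83 ZT8 nuclei, against 2 and 3 ZT20 nuclei.

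In the smooth muscle-like nuclei of ZT8, the 8 genes summed to 2668 and 2951 UMIs, or 14819 and 9195 CPM within these nuclei, which held 58.5% and 61.4% of all UMIs of the group. The median nucleus carried 21 and 23 UMIs of the group, with quartiles of 6.25 to 42.75 and 8.5 to 49.5. A member was seen in 87.2% of these nuclei in both libraries. Thinning to 800 UMIs left out the shallower nuclei, and a member was then seen in 86.7% and 85.7% of those with at least 800 UMIs. At ZT20 the sums were 17 and 19 UMIs, and they came from 2 and 3 of the 10 and 10 nuclei. At ZT20 these were too few nuclei to compare levels within the cluster.

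The makeup of the group in smooth muscle-like nuclei was similar in the 2 ZT8 libraries. Acta2 made up 31.3% and 34.0% of the UMIs of the group there, Myh11 23.6% and 26.9%, Tagln 15.7% and 13.1%, and Tpm2 13.1% and 10.7%. Myl9 made up 8.40% and 7.08%, Lmod1 4.16% and 5.25%, Cnn1 2.10% and 1.76%, and Actg2 1.61% and 1.19%. These are shares of molecules, not adjusted for transcript length. In all other nuclei of ZT8, Acta2 made up 28.7% and 29.5%, Myh11 18.1% and 18.5%, Myl9 10.4% and 12.5%, and Actg2 2.48% and 3.50%. In all other nuclei of ZT20, Acta2 made up 13.2% and 11.6%, Lmod1 18.2% and 16.5%, and Actg2 13.5% and 17.3%, so that Lmod1 and Actg2 took larger shares there than at ZT8.

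Other cells of the vessel wall were compared next. Pericyte-like nuclei, defined by Atp13a5, Vtn, Abcc9 and other pericyte markers, numbered 23 and 33 at ZT8, against 20 and 17 at ZT20. They differed by -0.22 percentage points of kept nuclei (exact two-sided permutation p = 0.333, the smallest possible with 2 libraries a time). Their shares were 0.380% (interval 0.241 to 0.570%) and 0.507% (0.349 to 0.711%) at ZT8. At ZT20 the shares were 0.258% (0.158 to 0.398%) and 0.196% (0.114 to 0.314%). Of nuclei in named classes they made up 0.543% and 0.742% at ZT8, against 0.460% and 0.409% at ZT20. The pericyte-like nuclei carried 13 and 36 UMIs of the 8 genes at ZT8, against 13 and 1 at ZT20, at median depths of 2050 to 2335 UMIs. Without its 1 nucleus of 10 or more UMIs, ZT8 replicate 2 had 59.4 UMIs per 100 nuclei, beside 56.5 in ZT8 replicate 1. The ZT20 libraries had 65 and 5.88 UMIs per 100 nuclei, so the times overlapped on this rate. Pericyte-like nuclei held 0.285% and 0.749% of the UMIs of the group at ZT8.

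In endothelial-like nuclei 3 of the 8 members, Myl9, Myh11 and Acta2, passed the filter on low counts. Myl9 stood there at 84.4 and 58.3 CPM at ZT8 and at 59.3 and 58.9 CPM at ZT20, from 35, 30, 11 and 14 UMIs. The 4 intervals overlapped, and the log2 change was -0.25 ± 0.37 (SE). In the same nuclei Myh11 differed by -3.49 ± 0.91 and Acta2 by -2.32 ± 1.27 on the log2 scale (SE), and the difference between members was not tested. In the larger of the 2 endothelial-like clusters alone, Acta2 stood at 43.5 and 22.5 CPM at ZT8 and at 27.9 and 4.24 CPM at ZT20, so the groups overlapped. Myh11 gave 15 and 8 UMIs at ZT8 in that cluster, against 0 and 2 at ZT20. In pericyte-like nuclei Myl9 gave 8 and 6 UMIs at ZT8, against 9 and 0 at ZT20. Oligodendrocyte-like nuclei, at a greater depth, gave 0 UMIs of Myl9 in both ZT20 libraries, where the floors of 3 counts were 1.54 and 1.89 CPM.

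A smaller endothelial-like cluster, led by Mgp, Mecom, Eln, Bmx, Vwf and Fbln5, had 19 and 24 nuclei at ZT8, against 2 and 1 at ZT20. Bmx is known from the endothelium of arteries, the vessels that smooth muscle surrounds. These nuclei carried 134 and 19 UMIs of the 8 genes at ZT8, of which 1 nucleus of replicate 1 held 106, and the 3 nuclei of ZT20 carried 0. Of Acta2 they carried 38 and 7 UMIs at ZT8, with 32 in 1 nucleus. The larger endothelial-like cluster had 68 and 78 nuclei at ZT8, against 49 and 52 at ZT20. Fibroblast-like nuclei numbered 44 and 43 at ZT8, against 22 and 25 at ZT20, and 3 of those of ZT8 replicate 2 carried 10 or more UMIs of the 8 genes.

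Over all kept nuclei, every marker of the lists below was detected in every library. The 9 endothelial markers summed to 113 and 108 CPM at ZT8 and to 65.4 and 75.6 CPM at ZT20. The 10 fibroblast markers summed to 64.1 and 70.8 CPM at ZT8 and to 46.6 and 50.2 CPM at ZT20. The 7 pericyte markers summed to 42.4 and 42.0 CPM at ZT8 and to 29.0 and 29.7 CPM at ZT20. The 6 smooth muscle markers, none of them a member and 3 of them also in the pathway lists below (Myocd, Pln and Kcnmb1), summed to 29.4 and 32.1 CPM at ZT8 and to 21.4 and 20.7 CPM at ZT20. The 15 mural markers hold all 7 pericyte and 4 of the 6 smooth muscle markers. Their sum was nearly level, at 176 and 186 CPM at ZT8 and 171 and 179.8 CPM at ZT20. The mural sum and the smooth muscle sum also take in molecules of other classes. Gucy1a1, 1 of the 15 mural markers, stood in neuron-like nuclei at 13.4 and 13.3 CPM at ZT8 and at 18.6 and 15.5 CPM at ZT20. Pln, 1 of the 6 smooth muscle markers, stood in astrocyte-like nuclei at 21.2 and 14.9 CPM at ZT8. Its level there at ZT20 was 21.0 and 15.7 CPM. Smooth muscle-like and pericyte-like nuclei together made up 1.80% and 1.70% of kept nuclei at ZT8, against 0.387% and 0.312% at ZT20. The 7 oligodendrocyte markers summed to 1873 and 1898 CPM at ZT8 and to 1264 and 1231 CPM at ZT20. The 7 ependymal markers were higher at ZT20, at 86.3 and 80.1 CPM beside 55.2 and 60.9 CPM at ZT8. Tanycyte markers were higher too, from 28.1 and 27.7 CPM to 56.6 and 55.4 CPM, with 1 tanycyte-like nucleus in each ZT8 library and 88 and 93 in the ZT20 libraries. Whether the punches of the 2 times held different tissue was not tested, and dissection and time cannot be told apart in the values of the 8 genes.

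Outside the smooth muscle-like and pericyte-like nuclei, together called mural-like, the genes were still lower at ZT20. Their sum in those nuclei was 3701 UMIs at ZT8 and 595 UMIs at ZT20 over both libraries, or 32.4 and 5.32 CPM. With the mural-like nuclei left out, the log2 changes were -3.85 for Acta2, -3.59 for Tagln, -3.11 for Tpm2, -2.93 for Myh11, -2.26 for Myl9 and -2.14 for Cnn1. Lmod1 and Actg2 were nearer to 0, at -0.47 and -0.28. Counting only nuclei with under 10 UMIs of the group, which was decided after the values were seen, gave -3.33 for Acta2, -0.21 for Lmod1 and -0.15 for Actg2.

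At ZT8 these scattered molecules were found at a similar rate per nucleus in 4 classes that differ much in depth. Among nuclei with under 10 UMIs of the group, microglia-like nuclei carried 16.4 and 16.7 UMIs per 100 nuclei at median depths of 2546.5 and 2755 UMIs. Oligodendrocyte-like nuclei carried 18.1 and 18.1 per 100 nuclei at 2847 and 3102 UMIs. Neuron-like nuclei carried 21.7 and 21.3 per 100 nuclei at 13268.5 and 14698.5 UMIs, and unnamed nuclei, most of them shallow, 23.6 and 22.7 per 100 nuclei at 850 and 942 UMIs. At ZT20 the same classes carried 1.63 and 0, 1.41 and 1.25, 6.0 and 5.84, and 2.17 and 1.46 UMIs per 100 nuclei. At ZT8 these 4 classes differed far more in depth than in rate, and all 4 had a lower rate at ZT20. The other glial classes differed more between the ZT8 libraries. Astrocyte-like nuclei carried 27.9 and 17.0 and oligodendrocyte precursor-like nuclei 29.2 and 21.1 UMIs per 100 nuclei. The classes of the vessels and meninges had higher rates at ZT8, 90.5 and 44.4 in endothelial-like and 59.1 and 82.5 in fibroblast-like nuclei. The few barcodes under 500 genes, 61 and 19 at ZT8, gave 3 and 1 UMIs of the group, too few to measure free RNA.

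Microglia and oligodendrocytes should not make these proteins, and they set the background for shares of nuclei with a UMI. A UMI of any member was present in 14.9% and 12.7% of microglia-like and 14.8% and 14.9% of oligodendrocyte-like nuclei at ZT8. In neuron-like nuclei, which are deeper, the shares were 18.9% and 18.2%. After thinning to 800 UMIs per nucleus, which left out 459 to 987 shallower nuclei per library, the share in neuron-like nuclei was 1.59% and 1.29%, below the 4.69% and 4.33% of oligodendrocyte-like nuclei. At ZT8 the neuronal share was thus above that of oligodendrocyte-like nuclei before thinning and below it after. Thinning keeps a smaller part of a deeper nucleus. As the rates per nucleus were similar, depth alone can give this order, and nothing is read from it. Whether the neuronal share came from free RNA or from expression was not tested. At ZT20 the shares before thinning were 5.40% and 5.44% in neuron-like and 1.41% and 1.25% in oligodendrocyte-like nuclei, and after thinning 0.35% and 0.14% against 0.35% and 0.42%.

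**Figure D3:**
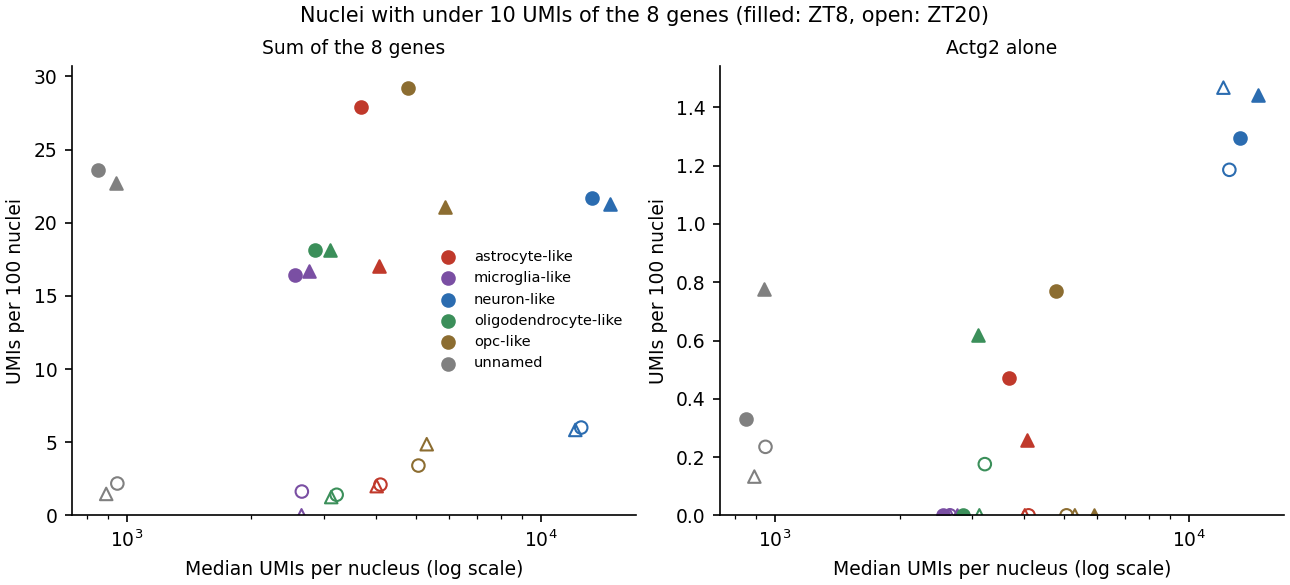
UMIs per 100 nuclei of the 8 genes together (left) and of Actg2 (right) against the median UMIs per nucleus of 6 classes (x axis, log scale), leaving out nuclei with 10 or more UMIs of the group; filled symbols are ZT8 and open ones ZT20, circles are replicate 1 and triangles replicate 2. On the left the ZT8 classes lie between 16.4 and 29.2 and the ZT20 classes between 0 and 6.0, while on the right the neuron-like points of the 2 times lie together between 1.19 and 1.47.

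In neuron-like nuclei the fitted changes of Lmod1 and Actg2 lay within 1 SE of 0, and the difference between members was not tested. Actg2 stood there at 0.844 and 0.868 CPM at ZT8 and at 0.840 and 1.05 CPM at ZT20, from 31, 37, 34 and 41 UMIs. Lmod1 stood at 0.708 and 0.704 CPM at ZT8 and at 0.914 and 0.820 CPM at ZT20, from 26, 30, 37 and 32 UMIs. For both genes every library's counting interval overlapped that of every other, and the log2 changes were 0.09 ± 0.25 and 0.24 ± 0.27 (SE). The other 6 members were lower at ZT20 in neuron-like nuclei, by log2 changes from -3.26 ± 0.27 for Acta2 to -1.52 ± 0.38 for Cnn1 (SE). Acta2 stood there at 5.03 and 3.24 CPM at ZT8 and at 0.519 and 0.359 CPM at ZT20.

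**Figure D4:**
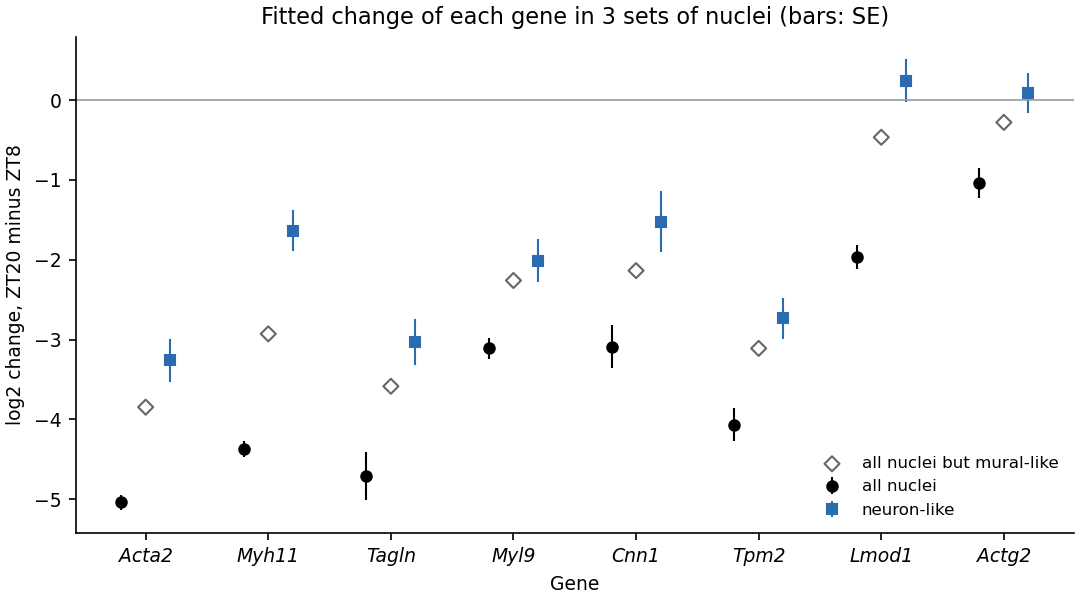
Fitted log2 change of each gene, ZT20 minus ZT8 (y axis), in all kept nuclei, in all nuclei but the mural-like ones and in neuron-like nuclei; bars on the first and last set are standard errors. Acta2 moves from -5.04 to -3.85 and -3.26 over the 3 sets, and Actg2 from -1.03 to -0.28 and 0.09.

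The neuronal Actg2 molecules were spread over clusters. Cluster 4 held the most at ZT20, 32 UMIs in 1665 nuclei, and 16 UMIs in 932 nuclei at ZT8. Cluster 6 gave 14 UMIs in 1119 nuclei at ZT8 and 8 in 512 at ZT20, and cluster 7 gave 13 in 765 and 9 in 520. Oligodendrocyte-like nuclei, which are shallower, gave 0 and 6 UMIs of Actg2 at ZT8, against 1 and 0 at ZT20. In the 88 and 93 tanycyte-like nuclei of ZT20, 4 and 3 UMIs of Lmod1 were found. These are low levels, since neuron-like nuclei held 1.19 to 1.47 UMIs of Actg2 per 100 nuclei in the 4 libraries.

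The genes whose level followed that of Acta2 and Myh11 most closely were sought over 39 sums of a class in a library, among 18660 genes. Likeness was Pearson's r on log2(CPM + 5), and is a description, since sums of 1 library share their free RNA and depth. Of the members, Acta2 and Myh11 define the pattern (0.98 each), and Tpm2 (0.96), Tagln (0.95), Cnn1 (0.90), Myl9 (0.88), Lmod1 (0.87) and Actg2 (0.81) followed it. Outside the group the 10 most alike were Mustn1 (0.89), Pdlim3 (0.89), Fbxl22 (0.85), Flna (0.84), Mylk (0.84), Pi15 (0.84), P2rx1 (0.83), Dstn (0.83), Fhl5 (0.82) and Kcnmb1 (0.82). P2rx1, an ATP-gated channel of arterial muscle, stood at 1.15 and 0.913 CPM at ZT8 and at 0.105 and 0.109 CPM at ZT20. Dstn, an actin-severing protein made by many cells, stood at 61.7 and 61.8 CPM at ZT8 and at 65.8 and 66.8 CPM at ZT20. Of the 10 genes, 8 had both ZT20 libraries below both ZT8 libraries, beside 31% of all genes tested, and Dstn and Pi15 did not. The 10 were picked by likeness over sums of both times, so nothing is read from this count.

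The wider pathway was followed in 4 lists of 64 genes, of which 62 passed the filter on low counts. The members passed it all 8 in all nuclei and in neuron-like nuclei, 5 in astrocyte-like, 5 in oligodendrocyte-like, 3 in endothelial-like, 1 in oligodendrocyte precursor (OPC)-like and 0 in microglia-like nuclei. In all nuclei, 47.7% of the 21040 genes tested were called by edgeR's quasi-likelihood test at an adjusted p under 0.05, with 23.4% lower and 24.3% higher at ZT20. A call is therefore common, and list counts are given beside these shares. The lists too were chosen with earlier results of these data known, so their counts and p-values are no independent support. The 25 other contractile and cytoskeletal genes gave 15 lower and 3 higher, with a median log2 change of -0.21 beside 0.0032 over all genes. The 10 regulators gave 4 lower and 1 higher, and the 16 genes of calcium and cyclic GMP handling gave 6 lower and 4 higher. Of the 13 striated muscle genes, 11 were tested, with 2 lower and 2 higher.

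Among the other contractile genes, the light chain kinase Mylk, which switches smooth muscle myosin on, was 21.1 and 20.8 CPM at ZT8 and 9.86 and 9.02 CPM at ZT20. It fell by 1.19 on the log2 scale (SE 0.06, edgeR adjusted p = 4.6e-14). Smtn, which binds the actin filaments of contractile smooth muscle, fell by 1.38 (SE 0.09, edgeR adjusted p = 1.3e-11), from 9.61 and 9.93 CPM to 3.39 and 4.34 CPM. Flna, an actin crosslinker, fell by 0.57 (SE 0.05, edgeR adjusted p = 1.4e-10), and Ppp1r14a, an inhibitor of myosin phosphatase, by 0.70 (SE 0.06, edgeR adjusted p = 1.4e-10). All 4 stayed lower with the mural-like nuclei left out, at -0.80 for Mylk, -1.12 for Smtn, -0.30 for Flna and -0.62 for Ppp1r14a. Of the 25 genes, 5 were called at least 2-fold lower, Smtn, Mylk, the intermediate filament Des (-1.84), Cnn2 (-1.24) and Pdlim3 (-1.20). Ppp1r14a was at 159 and 156 CPM in oligodendrocyte-like nuclei of ZT8, and that class took 14.8% and 14.9% of kept nuclei at ZT8 and 7.34% and 5.55% at ZT20. The part of that class in its fall was not tested.

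Of the regulators, Myocd, the co-activator of the group, fell by 0.97 on the log2 scale (SE 0.15, edgeR adjusted p = 6.4e-06), from 2.54 and 2.66 CPM to 1.44 and 1.29 CPM. With the mural-like nuclei left out its change was -0.09 (edgeR adjusted p = 0.71). Outside the mural-like nuclei the members other than Lmod1 and Actg2 differed by -2.14 to -3.85, and their difference from Myocd was not tested. In neuron-like nuclei Myocd stood at 1.52 and 1.36 CPM at ZT8 and at 1.56 and 1.38 CPM at ZT20. Srf itself stood at 2.66 and 2.63 CPM at ZT8 and at 2.62 and 2.83 CPM at ZT20 and was not called. Tead1, a factor of many cell types, rose by 0.53 (SE 0.03, edgeR adjusted p = 2.8e-12). The Notch ligand Jag1 fell by 0.46 (SE 0.10, edgeR adjusted p = 0.00036) and the Notch target Heyl by 0.44 (SE 0.13, edgeR adjusted p = 0.0095). Heyl was not called without ZT8 replicate 2 (edgeR adjusted p = 0.063) or without ZT20 replicate 1 (edgeR adjusted p = 0.067).

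In the calcium and cyclic GMP list, the calcium channel Cacna1c fell by 0.55 (SE 0.02, edgeR adjusted p = 1.8e-15) and Mrvi1, a substrate of the cyclic GMP kinase, by 0.94 (SE 0.05, edgeR adjusted p = 4.35e-14). The release channel Ryr2 rose by 0.50 (SE 0.02, edgeR adjusted p = 7.8e-15) and the kinase Prkg1 by 0.35 (SE 0.02, edgeR adjusted p = 8.8e-13). Neurons make all of these, and in neuron-like nuclei Cacna1c, Ryr2 and Prkg1 changed by -0.56, 0.53 and 0.38. Among the striated muscle genes Myh7 rose by 1.18 (SE 0.12, edgeR adjusted p = 1.9e-08), from 1.93 and 1.83 CPM to 4.15 and 4.59 CPM. Myh6 fell by 0.47 (SE 0.14, edgeR adjusted p = 0.0098), Myl2 by 0.64 (SE 0.23, edgeR adjusted p = 0.022), and Tpm3 rose by 0.09 (SE 0.03, edgeR adjusted p = 0.017). Myh6 and Myl2 were not called without ZT8 replicate 2 or without ZT20 replicate 1. Tpm3 was not called without ZT8 replicate 1 or without ZT20 replicate 1.

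Within neuron-like nuclei, 43.6% of 19579 genes were called, 21.6% lower and 22% higher, and of the 60 pathway genes tested 17 were lower and 11 higher. Smtn fell by 1.20 there (SE 0.13, edgeR adjusted p = 1.9e-08) and Mylk by 0.50 (SE 0.09, edgeR adjusted p = 6.6e-05). Smtn was low in these nuclei, at 6.97 and 6.10 CPM at ZT8 and at 2.57 and 3.31 CPM at ZT20. The part of free RNA in both changes was not tested. Vcl fell by 0.30 (edgeR adjusted p = 2.6e-06), Myh10, the non-muscle myosin of neurons, by 0.26 (edgeR adjusted p = 9.5e-09), Itpr1 by 0.43 (edgeR adjusted p = 6.5e-14), and Tead1 rose by 0.66 (edgeR adjusted p = 9.05e-14). Myh7 rose by 0.94 (edgeR adjusted p = 1.6e-05), and Myl2 fell by 0.76 (edgeR adjusted p = 0.028), a call lost without any 1 of the 4 libraries (edgeR adjusted p from 0.078 to 0.13).

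In oligodendrocyte-like nuclei, where 10.1% of 12131 genes were called, 4.74% lower and 5.41% higher, 6 of 39 pathway genes were lower and 0 higher (9 at an unadjusted p under 0.05). They were the cytoplasmic actins Actb and Actg1, which fell by 0.50 (SE 0.06, edgeR adjusted p = 1.6e-13) and 0.33 (SE 0.07, edgeR adjusted p = 0.00036), with Mylk, Ppp1r14a, Atp2a2 and Kcnma1. Actb went from 494 and 475 CPM to 334 and 336 CPM. Mylk went from 10.8 and 8.98 CPM to 2.05 and 3.78 CPM, a fall of 1.75 (SE 0.45, edgeR adjusted p = 0.0030). The part of free RNA in this fall, and in that of Flna in astrocyte-like nuclei below, was not tested. Mylk was not called without ZT8 replicate 1 (edgeR adjusted p = 0.079) or ZT20 replicate 1 (0.18), Ppp1r14a without ZT8 replicate 1 (0.076) or ZT20 replicate 2 (0.35), and Kcnma1 without ZT20 replicate 1 (0.080). In astrocyte-like nuclei, where 6.01% of 12088 genes were called, 2.34% lower and 3.66% higher, 3 of 42 pathway genes were lower and 1 higher. Vcl fell by 0.30 (SE 0.07, edgeR adjusted p = 0.0076), Flna by 1.504 (SE 0.37, edgeR adjusted p = 0.0083) and Tagln3 by 0.33 (SE 0.10, edgeR adjusted p = 0.038), and Prkg1 rose by 0.65 (SE 0.18, edgeR adjusted p = 0.024). Without ZT20 replicate 1 or ZT20 replicate 2, none of these 3 was called lower, without ZT8 replicate 2 only 1 of all pathway genes was, and Prkg1 was not called without ZT8 replicate 1, ZT8 replicate 2 or ZT20 replicate 1.

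In endothelial-like, microglia-like and OPC-like nuclei, edgeR called 0 of 42, 0 of 24 and 0 of 38 pathway genes, with 5, 3 and 1 at an unadjusted p under 0.05. DESeq2 also called 0 in each. Of all genes, 3.77% were called in endothelial-like nuclei (2.49% lower, 1.28% higher), 0.94% in microglia-like (0.318% lower, 0.622% higher) and 1.4% in OPC-like nuclei (0.385% lower, 1.01% higher). In endothelial-like nuclei 1 pathway gene was called lower without ZT8 replicate 1, ZT8 replicate 2 or ZT20 replicate 2. In endothelial-like nuclei Mylk stood at 200.2 and 128 CPM at ZT8 and at 37.8 and 109 CPM at ZT20 (edgeR adjusted p = 0.14). The 5 blood genes summed to 114 and 89.5 CPM at ZT8 and to 154 and 208 CPM at ZT20. Over all nuclei the median log2 change of the 5 was 0.80, and only Alas2 was called higher. Its change was 0.24 (SE 0.07, edgeR adjusted p = 0.0084), and it was not called without ZT8 replicate 1 or ZT20 replicate 2. In neuron-like nuclei all 5 rose, led by Hbb-bs at 0.79 (SE 0.08, edgeR adjusted p = 4.5e-07). Of the 7 choroid plexus genes 3 were called higher and 0 lower in all nuclei, Kl by 1.18, Clic6 by 0.78 and Kcnj13 by 0.34. Of these, Kcnj13 was not called without ZT8 replicate 1. The part of these other tissues in the values of the 8 genes was not tested.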

How the data were processed

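Single-nucleus RNA was measured with the 10x Genomics 3′ v3 assay in 4 libraries. The authors deposited UMI counts per gene and barcode, made with Cell Ranger 7.0.0 per the file headers; the submitters' processing notes name STAR 2.6 and mm10, and the counting of introns is not given in the sources used here. The members and gene lists were chosen with earlier results of these data known.

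Barcodes needed 500 or more genes and no more than 5% mitochondrial UMIs. Scrublet's automatic threshold marked 1, 0, 1 and 0 nuclei, so the highest scores were removed, at 0.8% per 1000 nuclei (326 to 702). Clustering used 3000 variable genes, 40 principal components, 20 neighbours and Leiden resolution 1 (scanpy 1.11.5, leidenalg 0.10.2). Clusters were named from fixed markers, with score thresholds set after the clusters were seen, and 30.0, 31.7, 43.9 and 52.02% of the nuclei in the 4 libraries stayed unnamed, at median depths of 850 to 949 UMIs.

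For each class, the UMI counts of a library's nuclei were added up. The 2 ZT20 sums were tested against the 2 ZT8 sums in edgeR 4.0.16 (filterByExpr, TMM, robust quasi-likelihood, two-sided, Benjamini-Hochberg over all genes), and with DESeq2 1.42.0 as an alternative, after tests on simulated data. Named genes are the members, up to 4 called genes per list and comparison with the smallest p, and the 10 genes most like Acta2 and Myh11. A class was tested where each library held 50 nuclei or more. Shares used an exact permutation test. Alternatives were DESeq2's size factors, no filter on low counts, stricter nucleus filters, all barcodes, other clusterings, thinning, a replicate block, mural-like nuclei left out and each library left out.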

Additional observations from a re-analysis of the deposited data

How the results depend on the processing

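The summed log2 change of the 8 genes, -3.83, was -2.62 with the mural-like nuclei left out and, an alternative chosen after seeing the data, -2.22 without nuclei of 10 or more UMIs of the group. It ran from -3.92 to -3.74 with 1 library left out. Every member kept its negative sign in all nuclei under each setting run. The share of the group's UMIs in smooth muscle-like nuclei at ZT8, 59.9%, was 67.2% with the contractile genes in the clustering and 69.5% after thinning, and 58.5 to 61.4% with 1 ZT8 library left out. Of single genes, Myocd turned from -0.97 to 0.038 without the nuclei of 10 or more UMIs. In all nuclei, 27 pathway genes were lower and 10 higher, and the counts stayed within 1.5 times under every setting (23 to 31 and 9 to 11 with 1 library left out). Over all genes, edgeR called 10035 and DESeq2 6583 in all nuclei. Of the genes named for all nuclei, DESeq2 did not call Heyl, Myh6, Myl2, Tpm3, Alas2 and Kcnj13. In astrocyte-like nuclei, DESeq2 called 0 lower and 0 higher in place of 3 and 1, and leaving out 1 library gave 0 to 2 and 0 to 1. In endothelial-like nuclei, leaving out 1 library gave 0 to 1 lower calls. Equal replicate numbers did not deviate together (correlation from -0.03 to 0.02 over 7 sets of nuclei), and the labels name no pairing. A replicate block gave 27 lower and 11 higher pathway genes in all nuclei and 1 in place of 0 lower in endothelial-like nuclei. At ZT20, 42 to 58 UMIs a library for Acta2 and Myh11 limit any comparison within classes.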
